A study of Homo sapiens with 8 samples.

Results

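The 45 genes described here code for proteins of DNA replication and S phase. They were chosen by name: every probe whose gene name in the scanner files was on a list of 45 symbols was taken, out of 43317 gene names on the arrays, and the values used are log2 ratios of Cy5 over Cy3 on 8 arrays. The list was drawn up with earlier results of these data known, so its counts are descriptions. It holds KIAA0101, MCM2 and TICRR, which the study lists as candidate miR-139-3p targets partly by their low values in transfected HCT116 cells. All 45 were found, and each of the 45 was well above background in Cy3 and in Cy5 on every array, so that no member was lost to a filter. By role they comprise 10 origin licensing genes, 7 origin firing genes, 5 polymerase genes, 6 genes of the sliding clamp and its loader, 2 lagging strand genes, 4 nucleotide supply genes, 5 regulators, 3 histone supply genes and 3 checkpoint and repair genes.

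The arrays were of the 2-colour Agilent kind, with 60-base probes. On 4 of them the Cy5 channel held total RNA of the human colorectal cancer line HCT116 transfected with the 5p or the 3p strand of miR-139 or of miR-143. On the other 4 it held RNA of the human pancreatic cancer line PANC-1 transfected with miR-30c-5p or miR-30c-2-3p, or with the 5p or 3p strand of miR-30a, in each case with Lipofectamine RNAiMAX in RPMI 1640 or DMEM. The Cy3 channel held mock RNA of the same line, which the labels give as not transfected and the study's methods as treated without a precursor. No array held a control miRNA. Transfected RNA was in Cy5 and mock RNA in Cy3 on every array, so a probe's dye effect and its response cannot be told apart. Each miRNA was on 1 array, so no value below carries an error over replicates and no test was run. A size rule took its place: genes whose log2 ratio lay 1 or more from 0, a 2-fold difference, were counted as lower or higher. To see whether the probe values bear out the labels, the seeds of the transfected miRNAs (bases 2 to 8) were looked up in the probes. The median of detected genes with a match in their probe to the miRNA on that array was below the median of the rest on 6 of the 8 arrays. It was not below on the miR-139-3p array, 0.02 against 0.01, or on the miR-143-3p array, 0.03 against 0.01. On all 8 arrays the medians with a match were small, between -0.08 and 0.03, and a 60-base probe covers a small part of an mRNA. The check therefore cannot decide whether any label is right, and all miRNAs are named as labelled.

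Replication starts from origins that are licensed in G1, when the origin recognition complex, CDC6 and CDT1 load the ring-shaped MCM helicase onto DNA. At the start of S phase CDC45 and the GINS complex join the helicase, and polymerases held by the PCNA clamp copy both strands while ribonucleotide reductase and thymidylate synthase supply the nucleotides. Most of these genes are transcribed under E2F factors, which cyclin E and its kinase release from the pocket proteins, and their mRNA levels are widely used as a readout of proliferation in tumour cell lines.

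The transfected miRNAs are shown so that their seeds can be compared. The mature forms are given 5′ to 3′ from RefSeq (GRCh38.p14), with the seed, bases 2 to 8, in capitals.
miR-139-5p: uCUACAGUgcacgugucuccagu
miR-139-3p: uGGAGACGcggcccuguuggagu
miR-143-5p: gGUGCAGUgcugcaucucuggu
miR-143-3p: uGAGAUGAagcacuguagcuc
miR-30c-5p: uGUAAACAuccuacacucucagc
miR-30a-5p: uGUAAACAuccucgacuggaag
miR-30c-2-3p: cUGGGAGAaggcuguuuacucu
miR-30a-3p: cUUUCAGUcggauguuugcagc
Only miR-30c-5p and miR-30a-5p had a seed in common. The other 6 seeds differed from it and from each other, including those of the 5p and 3p strand of any 1 precursor.

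To relate a group result to the array background, the genes were first compared as a list on each array. On the miR-139-3p array their median log2 ratio was -0.84, with quartiles of -1.15 and -0.58, whereas the median of all detected genes was 0.01. There, 16 of the 45 genes (35.6%) were at least 2-fold lower, against a background of 2.82% of detected genes, and 43 of 45 were below 0, as were 47.7% of all detected genes. No member was 2-fold higher, where the background was 2.11%. RNA of a culture was measured, so fewer cells in S phase and less of an mRNA per cell cannot be told apart. On the miR-139-5p array, from the opposite strand of the same precursor, the median was -0.02 and no member was 2-fold lower or higher, beside backgrounds of 0.201% and 0.0587%. On that array 32 members lay within 0.2 of 0, and after miR-139-3p 4 did, namely MCM5, POLE, PCNA and TK1.

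With miR-143-5p the median of the members was -0.28 and 4 of the 45 genes (8.89%) were lower, against 1% of detected genes, with none higher where the background was 0.356%. On the miR-143-3p array the median was -0.50, 3 of the 45 genes (6.67%) were lower, against 0.925%, and none was higher, against 0.517%. On that array 41 members were below 0, beside 48.6% of detected genes, and after miR-143-5p 37 were, beside 48.8%. The median was therefore shifted further on the miR-143-3p array, while the members past 2-fold were about as few.

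In PANC-1 the list moved little as a whole. The medians were -0.08 after miR-30c-5p, -0.08 after miR-30a-5p and -0.06 after miR-30a-3p. On each of these 3 arrays 1 member was 2-fold lower, against backgrounds of 0.445%, 0.263% and 1.1% of detected genes in that order. In the higher direction 1 member passed after miR-30c-5p, against 0.747%, and none after miR-30a-5p or miR-30a-3p, against 0.306% and 0.372%. A share of 1 in 45 is 2.22%, which rests on a single gene each time. With arrays centred on their median in place of loess, the members' medians on these 3 arrays were above 0, at 0.36, 0.17 and 0.58. All detected genes moved up as well, to medians of 0.21, 0.15 and 0.30, and relative to these the members were 0.15, 0.03 and 0.28 higher, where under loess the differences were -0.10, -0.09 and -0.08. The miR-30c-2-3p array differed from these in its spread: the median was -0.23, but the members ranged from -2.56 to 1.37. There, 7 of the 45 genes (15.6%) were lower, against 4.14%, and 3 were higher, against 1.71%.

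**Figure D1:**
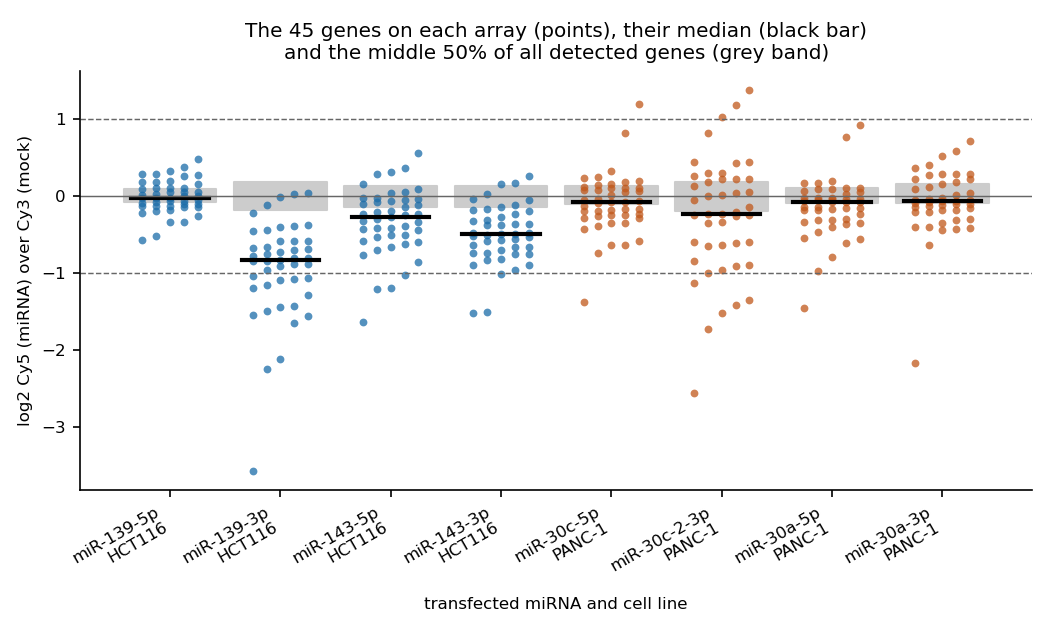
The log2 ratio of Cy5 (transfected) over Cy3 (mock) of each of the 45 genes (points; blue HCT116, orange PANC-1) by array, with their median as a black bar, the middle 50% of all detected genes as a grey band and dashed lines at a 2-fold difference. The points lie lowest as a group after miR-139-3p, around -0.84, and spread most widely in both directions around their median after miR-30c-2-3p.

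The mock channels touch every HCT116 value above. The Cy3 channels of both arrays of 1 precursor differed by a median of 0.04 per member in absolute terms, in miR-139 as in miR-143, whereas between the precursors the members were higher in the miR-139 mocks by a median log2 difference of 0.41 (1.33-fold, quartiles 0.32 and 0.56). Of the 45 genes, 42 were higher in the miR-139 mocks. The largest mock difference was that of MCM4, 1.06, followed by GINS1 at 0.81 and CHAF1A at 0.71, and the lowest was that of CCNE1, -0.18. Mitosis genes differed in the same direction, by a median of 0.55 to 0.59 over the pairs of arrays, and all genes by 0.01. In PANC-1 the members' mock difference between precursors had a median of -0.0013 (miR-30c minus miR-30a) and a range of -0.44 to 0.30. The labels do not state whether both arrays of a precursor hold RNA of 1 mock culture, and no agreement between such arrays is counted here.

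Each Cy5 level was therefore also set against the mean mock of the line's other precursor. The Cy5 level is the same in both ratios, so they are not independent, and the pairing of channels on an array is lost. With that mock the members' median on the miR-139-3p array was -0.38 in place of -0.84, and 8 genes in place of 16 were 2-fold lower, where the background was 3.54%. All 8 were among the 16: KIAA0101, MCM2, CCNE1, CDC45, CHAF1B, UNG, PRIM1 and CCNE2. With 42 of the 45 genes higher in the miR-139 mocks, this overlap was largely fixed by the mocks. The 8 that fell short of 2-fold there were MCM3, MCM4, MCM7, GINS2, RFC2, E2F2, E2F8 and RPA2. The miR-139-5p median became 0.40, that of miR-143-5p -0.67 with 10 lower genes against 1.76% of detected genes, and that of the miR-143-3p array -0.84 with 18 lower genes against 2.28%. The order of the HCT116 arrays by the members' median thus depended on the mock: miR-139-3p was lowest against its own mock and the miR-143-3p array was lowest against the other. In PANC-1 the medians moved by less, to -0.12 after miR-30c-5p, -0.06 after miR-30c-2-3p, -0.11 after miR-30a-5p and -0.07 after miR-30a-3p. After miR-30c-2-3p, 6 of the 7 lower members (CDC45, E2F2, CCNE1, POLD1, LIG1 and GINS3) and all 3 higher ones (RFC5, ORC6 and RPA2) were also past 2-fold against the other mock. The part of the difference between mocks in any single gene's ratio was not tested.

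**Figure D2:**
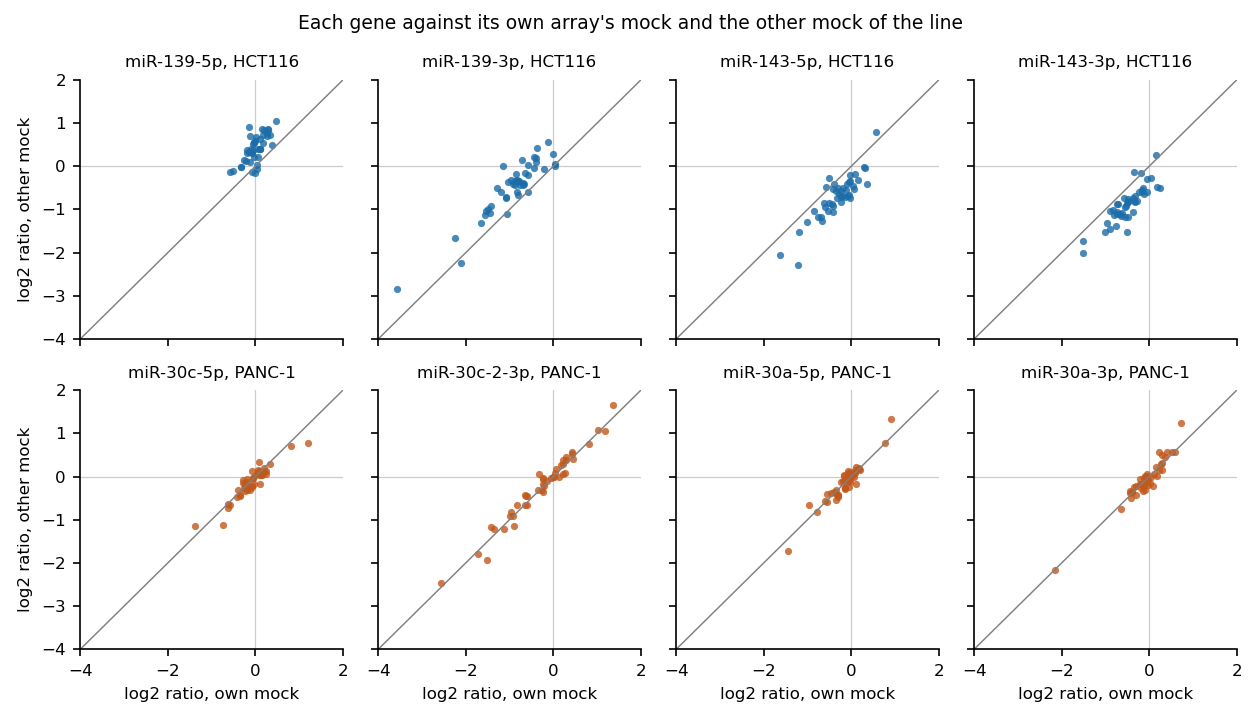
Log2 ratio of each of the 45 genes against its own array's mock (horizontal axis) and against the mean mock of the other precursor of the same cell line (vertical axis), 1 panel per array, with a line where both are equal. In HCT116 most points lie above the line for the miR-139 arrays and below it for the miR-143 arrays, and in PANC-1 they lie near the line.

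The scale of technical error was read from repeated spots. Probes of 6 members, CHAF1B, E2F1, GINS2, KIAA0101, ORC6 and PRIM1, were printed 10 times on each array, and the SD of the log2 ratio between those spots had a median of 0.0507 and a range of 0.0170 to 0.0759. This is a spread between spots of a hybridisation and not between cultures. The slide was the same for all, HCT116 in its first column and PANC-1 in the next, so that line and position cannot be told apart. Saturated spots were absent, and the share of spots well above background was 44.1% to 45.3% for Cy3 and 45.8% to 51.4% for Cy5. Levels in the HCT116 mocks exceeded those in the PANC-1 mocks by 3.02 for CDH1 and 4.38 for EPCAM, and VIM stood the other way, at -8.97 for HCT116 minus PANC-1. Of the other markers, KRT8, KRT20 and CLDN7 were also higher in HCT116 and KRT18 was not, and CDH2, ZEB1, SPARC and AXL were higher in PANC-1. FN1 was well above background in Cy3 on none of the 8 arrays and KRT20 on 2. The members themselves were higher in the HCT116 mocks by a median of 0.21, with a range of -1.23 to 1.81.

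The offset of 50 that was added to every intensity draws the ratios of dim probes towards 0, and CDC6, POLE, TICRR, ORC1 and CLSPN were the dimmest members, with mean Cy3 intensities of 38.2 to 76.9. In the scanner's own log ratio, which has no such offset, 23 members in place of 16 were 2-fold lower after miR-139-3p, where the background rose to 9.82%. The 7 added were ORC1, MCM10, TICRR, POLA1, POLE2, E2F1 and CLSPN. After miR-143-5p 5 members were lower in that ratio, against 4.75%, E2F1 being the added one. On the miR-143-3p array 5 were, against 4.98%, with E2F1, POLA1 and RFC3 added and MCM3 lost. In PANC-1 it added CCNE2 after miR-30c-5p and RRM2 after miR-30c-2-3p and miR-30a-5p. Whether such a member was past 2-fold thus depended on the processing.

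Below, values of a gene are log2 ratios of Cy5 over its own Cy3. Where arrays are not named, the HCT116 values are in the order miR-139 then miR-143, and the PANC-1 values in the order miR-30c then miR-30a, each time 5p first and 3p second.

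Of the 10 licensing genes, 4 were 2-fold lower after miR-139-3p, 2 after miR-143-5p, 2 on the miR-143-3p array and 1 after miR-30c-2-3p. The shares of all detected genes were 2.82%, 1%, 0.925% and 4.14% in that order. The gene after miR-30c-2-3p was MCM6, at -1.002, close to the limit. All 4 on the miR-139-3p array, MCM2, MCM3, MCM4 and MCM7, code for subunits of the MCM helicase. MCM2 was at -2.25 after miR-139-3p and -0.06 after its 5p strand, -0.15 after miR-143-5p, and -0.66 for the miR-143-3p array, all in HCT116. In PANC-1 MCM2 was at 0.30 after miR-30c-2-3p and -0.25 after miR-30c-5p, and at -0.07 after miR-30a-3p and -0.15 after miR-30a-5p. Its miR-139-3p value is the lowest of any MCM gene on any array and stands alone among the 8, the next lowest being -0.66. Against the other HCT116 mock it was -1.67.

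MCM3 was at 0.0017, -1.29, -0.05 and -1.01 on the HCT116 arrays and at -0.05, -0.60, -0.05 and -0.04 on the PANC-1 arrays. It was low on both 3p arrays of HCT116, and against the other mock MCM3 was -0.50 after miR-139-3p, and -1.52 for the miR-143-3p array. MCM4 was at -0.14, -1.15, -1.21 and -0.51 on the HCT116 arrays and at -0.19, -0.21, -0.61 and -0.64 on the PANC-1 arrays. This gene had the largest mock difference of the list, and against the other mock its value was -0.0026 after miR-139-3p and -2.28 after miR-143-5p, so that its low value after miR-139-3p was absent there while that after miR-143-5p was larger. MCM6 was at 0.10, -0.96, -0.21 and -1.52 on the HCT116 arrays and at 0.07, -1.002, 0.20 and -0.18 on the PANC-1 arrays. It was lowest on the miR-143-3p array, where MCM6 had the lowest value of all members.

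MCM7 was at -0.03, -1.04, -1.63 and -0.63 on the HCT116 arrays and at -0.25, -0.91, -0.36 and -0.21 on the PANC-1 arrays. With miR-143-5p it was the lowest member. The probe behind these values, at chr7:99690520-99690579 (hg19), was bright, with a Cy3 intensity of 7233 on the miR-143-5p array, and a second MCM7 probe with an intensity of 72.5 there gave -0.19. The probes also differed on the miR-143-3p array, -0.63 and 0.10, and on the miR-30c-2-3p array, -0.91 and -0.23. MCM5 lay apart from the other helicase subunits, since it stayed between -0.64 and 0.29 and was at -0.11 after miR-139-3p.

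The subunits of the helicase thus did not move as 1 unit. On the miR-139-3p array the 6 MCM2 to MCM7 genes ran from -2.25 to -0.11, and after miR-143-5p from -1.63 to 0.16. Of the loaders, CDC6 stayed between -0.22 and 0.18, CDT1 between -0.40 and 0.26 and ORC1 between -0.81 and 0.15. CDC6 and ORC1 were dim, and in the scanner's log ratio CDC6 was at -0.79 and ORC1 at -1.89 after miR-139-3p. ORC6, which codes for the smallest subunit of the origin recognition complex, was at -0.33, -0.69, -0.51 and -0.51 on the HCT116 arrays and at -0.18, 1.18, -0.23 and 0.51 on the PANC-1 arrays. With miR-30c-2-3p it was 1 of the 3 members 2-fold higher.

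CDC45, the protein that activates the loaded helicase together with GINS, was 2-fold lower on 3 arrays. It was at -1.65 after miR-139-3p and -0.02 after its 5p strand, -1.02 after miR-143-5p, and -0.89 for the miR-143-3p array, all in HCT116. In PANC-1 CDC45 was at -2.56 after miR-30c-2-3p and -0.63 after miR-30c-5p, and at -0.30 after miR-30a-3p and -0.55 after miR-30a-5p. The miR-30c-2-3p value is the lowest of all members on that array, and against the other PANC-1 mock it was -2.47. In HCT116 the values against the other mock were -1.32 after miR-139-3p and -1.28 after miR-143-5p.

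The genes of the GINS complex were mixed. GINS2 was at 0.33, -1.08, 0.09 and -0.75 on the HCT116 arrays and at 0.15, -0.15, 0.10 and -0.06 on the PANC-1 arrays and was 2-fold lower after miR-139-3p. GINS3 was 2-fold lower after miR-30c-2-3p, at -1.13, and was at -0.89 after miR-139-3p, and -0.96 for the miR-143-3p array. GINS1 was at -0.13, -0.72, 0.36 and 0.26 on the HCT116 arrays and at 0.32, 0.22, 0.09 and 0.27 on the PANC-1 arrays, and GINS4 was at -0.51, -0.84, -0.44 and -0.48 on the HCT116 arrays and at 0.11, 0.26, -0.18 and 0.29 on the PANC-1 arrays, with no value of either past 2-fold. MCM10 and TICRR, a factor needed to load CDC45, were at -0.84 and -0.67 after miR-139-3p and between -0.48 and 0.45 on the other 7 arrays. Both were dim, and in the scanner's log ratio they were past 2-fold after miR-139-3p, MCM10 at -1.48 and TICRR at -2.02.

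Among the 5 polymerase genes, PRIM1, the catalytic subunit of primase, was the lowest after miR-139-3p. PRIM1 was at -0.22, -1.44, 0.31 and -0.81 on the HCT116 arrays and at -0.43, -0.06, -0.34 and -0.18 on the PANC-1 arrays. Its value after miR-139-3p had an SD between spots of 0.0581 over 10 spots, and against the other mock it was -1.09. POLD1, the catalytic subunit of polymerase delta, was at -0.91 after miR-139-3p and was 2-fold lower after miR-30c-2-3p, at -1.42. POLA1 and POLE2 were at -0.88 and -0.80 after miR-139-3p, and at -1.11 and -1.24 in the scanner's log ratio, which is past 2-fold. POLE, the catalytic subunit of polymerase epsilon, was at 0.10, -0.02, -0.06 and 0.03 on the HCT116 arrays and at 0.01, 0.29, 0.06 and -0.05 on the PANC-1 arrays. After miR-139-3p it lay nearer 0 than its partner POLE2, but the POLE probe was dim, with a Cy3 intensity of 69.4 there. In the scanner's log ratio this probe was at -0.01, and a still dimmer second POLE probe, at 31.7, was at -0.41.

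Of the 6 genes of the clamp and its loader, PCNA, the clamp itself, was at 0.03, 0.05, -0.50 and 0.16 on the HCT116 arrays and at -0.17, -0.0036, -0.16 and -0.06 on the PANC-1 arrays, with no value past 2-fold. KIAA0101 (PCLAF in RefSeq), which codes for a small PCNA-associated factor, was the member with the widest range. KIAA0101 was at -3.57 after miR-139-3p and 0.01 after its 5p strand, -0.67 after miR-143-5p, and 0.17 for the miR-143-3p array, all in HCT116. In PANC-1 KIAA0101 was at -0.34 after miR-30c-2-3p and -1.38 after miR-30c-5p, and at 0.09 after miR-30a-3p and -1.46 after miR-30a-5p. It was low after miR-139-3p and after both miR-30 5p strands, and near 0 after miR-139-5p and miR-30a-3p. The miR-139-3p value had an SD of 0.0727 between its 10 spots. Against the other mock of the line, KIAA0101 was -2.86 after miR-139-3p, -1.15 after miR-30c-5p and -1.73 after miR-30a-5p, and it was -1.27 after miR-143-5p.

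The loader genes split by array. RFC2 was 2-fold lower after miR-139-3p, at -1.07, where RFC4 was at -0.78, RFC5 at -0.84 and RFC3 at -0.58. RFC5 was at 0.29, -0.84, -0.41 and -0.89 on the HCT116 arrays and at -0.25, 1.37, -0.31 and 0.01 on the PANC-1 arrays. With miR-30c-2-3p it was the highest of all members, and against the other mock it was 1.66. RFC3 was at -0.08, -0.58, -0.58 and -0.74 on the HCT116 arrays and at -0.08, 0.13, -0.07 and 0.59 on the PANC-1 arrays, and its value after miR-30a-3p was among the 3 highest on that array. A second, dimmer RFC3 probe was at -0.17 after miR-139-3p, 0.73 after miR-30c-2-3p and 0.41 after miR-30a-3p, so that the probes disagreed on the size.

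The lagging strand genes were FEN1, the flap endonuclease, and LIG1, the ligase that joins Okazaki fragments. Neither was 2-fold lower after miR-139-3p, where FEN1 was at -0.44 and LIG1 at -0.59. With miR-30c-2-3p they lay on opposite sides of 0, FEN1 at 0.82 and LIG1 at -1.35.

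Of the 4 nucleotide supply genes none was 2-fold lower after miR-139-3p, 1 was after miR-143-5p and 1 was on the miR-143-3p array. The shares of all detected genes were 2.82%, 1% and 0.925% in that order. RRM1, the large subunit of ribonucleotide reductase, was at -0.08, -0.40, -1.19 and -0.38 on the HCT116 arrays and at -0.35, 0.42, -0.40 and -0.11 on the PANC-1 arrays, and RRM1 was 2-fold lower after miR-143-5p. Its small subunit RRM2 was at 0.38, -0.70, -0.43 and -0.70 on the HCT116 arrays and at -0.74, -0.89, -0.97 and 0.22 on the PANC-1 arrays, lowest on the miR-30a-5p array. TYMS, thymidylate synthase, was at 0.18, -0.45, -0.19 and -1.51 on the HCT116 arrays and at -0.06, 0.06, -0.04 and -0.40 on the PANC-1 arrays. The 2-fold lower value of TYMS was on the miR-143-3p array, and against the other mock it was -1.74. TK1, thymidine kinase, was at -0.34, 0.03, -0.85 and -0.83 on the HCT116 arrays and at -0.07, -0.84, -0.04 and 0.29 on the PANC-1 arrays, so that it was lower on the miR-143 arrays than on the miR-139 arrays against their own mocks.

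The 5 regulators had a median of -1.20 after miR-139-3p, the lowest role median except that of the 3 checkpoint and repair genes, -1.43. On that array 4 of 5 regulators were 2-fold lower, against 2.82% of detected genes. Against the other mock the regulators' median was -0.99 and 2 were lower, against 3.54%. CCNE1, cyclin E1, was at -2.12 after miR-139-3p and 0.0024 after its 5p strand, 0.56 after miR-143-5p, and -0.36 for the miR-143-3p array, all in HCT116. In PANC-1 CCNE1 was at -1.52 after miR-30c-2-3p and 1.20 after miR-30c-5p, and at 0.72 after miR-30a-3p and 0.92 after miR-30a-5p. It was 2-fold lower after miR-139-3p and miR-30c-2-3p, and above 0 after miR-143-5p and the other 3 PANC-1 miRNAs. Against the other mock, CCNE1 was -2.25 after miR-139-3p, -1.93 after miR-30c-2-3p, 0.77 after miR-30c-5p and 1.34 after miR-30a-5p. It was also 1.24 after miR-30a-3p. The 2-fold higher call after miR-30c-5p was thus lost there while those after miR-30a-5p and miR-30a-3p were gained, and the CCNE1 level of the PANC-1 mocks differed by -0.44.

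CCNE2, cyclin E2, was at 0.05, -1.06, -0.39 and -0.19 on the HCT116 arrays and at -0.63, -0.60, -0.55 and -0.44 on the PANC-1 arrays and was 2-fold lower after miR-139-3p. A second CCNE2 probe, with a Cy3 intensity of 37.4, was at -0.32 there. In the scanner's log ratio, without the offset, the second probe was at -1.88 and the first at -1.635. E2F2, an activating member of the E2F family, was at -1.50 after miR-139-3p and 0.48 after its 5p strand, 0.03 after miR-143-5p, and -0.36 for the miR-143-3p array, all in HCT116. In PANC-1 E2F2 was at -1.72 after miR-30c-2-3p and 0.82 after miR-30c-5p, and at 0.41 after miR-30a-3p and 0.76 after miR-30a-5p. It was lowest after miR-30c-2-3p and miR-139-3p and highest after miR-30c-5p. Against the other mock it was -0.99 after miR-139-3p and -1.81 after miR-30c-2-3p. E2F1 was at -0.76 after miR-139-3p and -0.76 after miR-143-5p, and its miR-143-3p value was -0.67, none past 2-fold, whereas in the scanner's log ratio all 3 were, at -1.13, -1.28 and -1.12. E2F8, a repressing family member, was 2-fold lower after miR-139-3p alone, at -1.20, and fell short of 2-fold there against the other mock.

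Of the histone supply genes, CHAF1B, a subunit of the chromatin assembly factor that places histones on new DNA, was at -0.57, -1.56, -0.28 and -0.31 on the HCT116 arrays and at -0.13, -0.24, -0.18 and -0.35 on the PANC-1 arrays. With miR-139-3p it was 2-fold lower against either mock, -1.12 against the other. Its partner CHAF1A was at -0.38 there, and SLBP, the stem-loop binding protein of histone mRNAs, was at -0.58.

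RPA2, a subunit of the single-strand binding protein, was at -1.43 after miR-139-3p and -0.12 after its 5p strand, -0.32 after miR-143-5p, and -0.14 for the miR-143-3p array, all in HCT116. In PANC-1 RPA2 was at 1.03 after miR-30c-2-3p and -0.58 after miR-30c-5p, and at 0.36 after miR-30a-3p and -0.79 after miR-30a-5p. It was thus 2-fold lower after miR-139-3p and 2-fold higher after miR-30c-2-3p. UNG, the uracil glycosylase that clears uracil from new DNA, was at -1.54 after miR-139-3p and -0.26 after its 5p strand, -0.62 after miR-143-5p, and -0.74 for the miR-143-3p array, all in HCT116. In PANC-1 UNG was at -0.96 after miR-30c-2-3p and 0.19 after miR-30c-5p, and at -2.16 after miR-30a-3p and 0.17 after miR-30a-5p. With miR-30a-3p it was the only member 2-fold lower, and the next lowest member there was MCM4 at -0.64. Against the other mock UNG was -2.17 after miR-30a-3p and -1.05 after miR-139-3p. CLSPN, claspin, a dim member, was at -0.66 after miR-139-3p, or -1.62 in the scanner's log ratio, and within -0.42 and 0.05 on the other arrays.

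**Figure D3:**
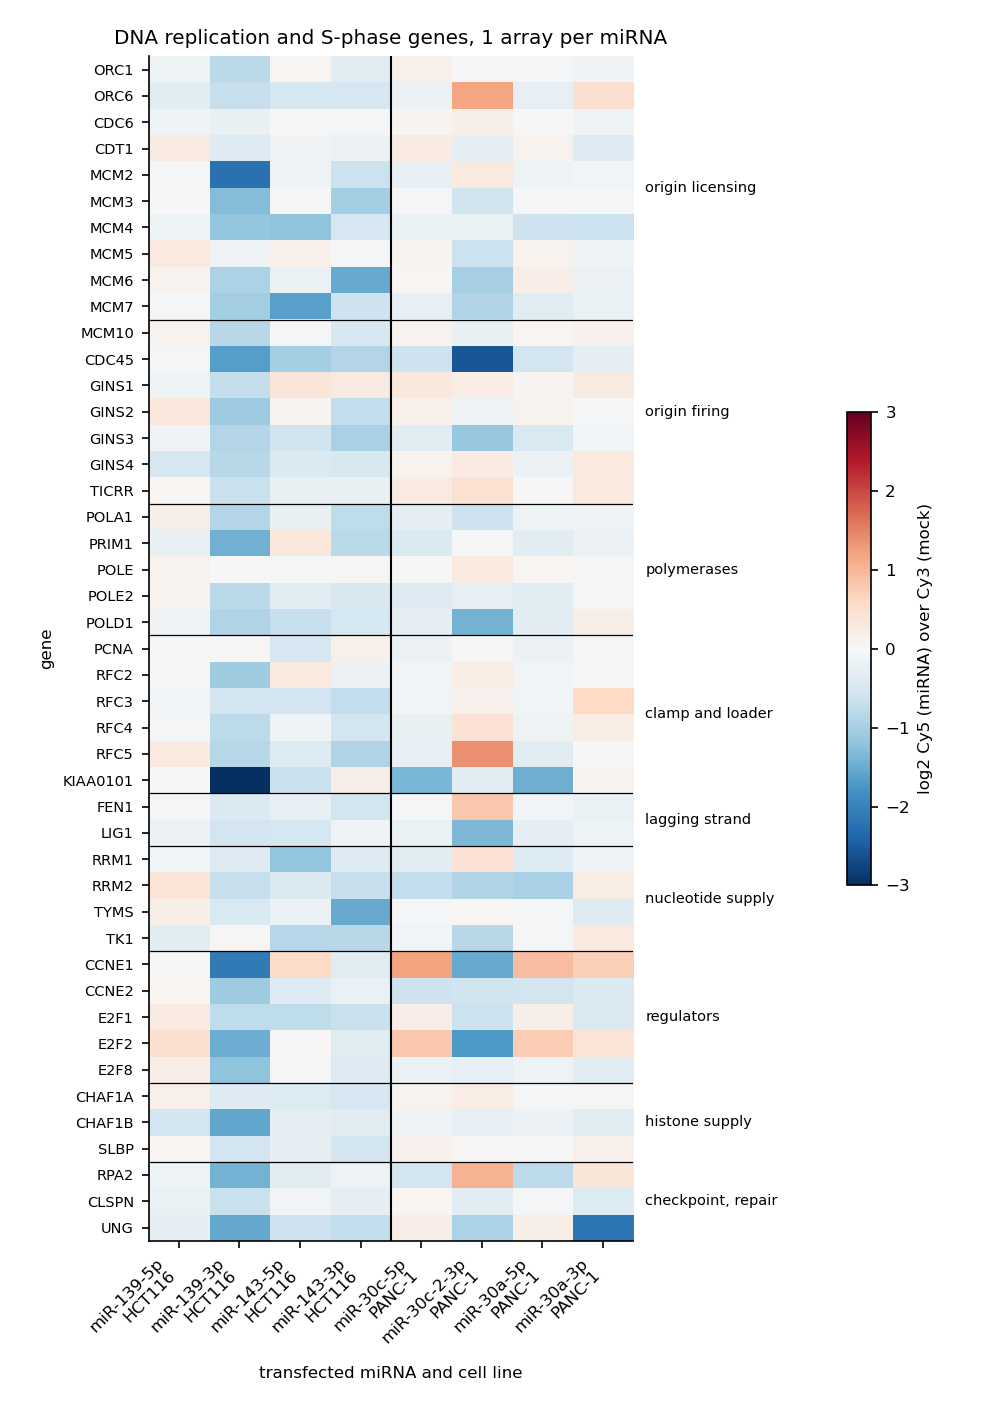
Log2 ratio of Cy5 over Cy3 of the 45 genes (rows, by role) on the 8 arrays (columns; HCT116 left of the line, PANC-1 right of it), blue where lower than mock and red where higher, with the colour scale ending at 3. The miR-139-3p column is blue in nearly all rows, the miR-30c-2-3p column holds both colours, and KIAA0101 is blue on the miR-139-3p array and both miR-30 5p arrays.

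The miRNAs with 1 seed in common, miR-30c-5p and miR-30a-5p, were also compared gene by gene. Over the 45 genes their log2 ratios differed by a median of 0.08 in absolute terms, and 37 of 45 (82.2%) were within 0.2 of each other, beside a median of 0.07 and 88.4% over all genes detected on both arrays. The members were therefore no closer than other genes. The largest difference was that of MCM4, -0.19 and -0.61. For the 3p strands of the same precursors, which have different seeds, the median was 0.43 and 14 of 45 (31.1%) were within 0.2, beside 0.23 and 46.2% over all genes, with the largest difference at CDC45, -2.56 and -0.30. The members' levels in the mock channels of the 5p arrays differed by a median of 0.07 in absolute terms, and in those of the 3p arrays by 0.10. The arrays were on 1 slide, and the genes are not independent of each other, so these are descriptions of 4 hybridisations.

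To show whether the probes themselves held target letters, each probe was searched for the 7 letters complementary to a seed. Of the 53 probes of members, 1 (1.89%) held a match to any of the 7 seeds, against 3.40% of 58201 probes. It was the RPA2 probe at chr1:28218305-28218364 (hg19, minus strand), whose bases 29 to 35 matched the seed of miR-30c-5p and miR-30a-5p, in capitals.
RPA2 probe stretch: cttcttaaaaTGTTTACtgctgaaaga
RPA2 was at -0.58 and -0.79 with these miRNAs. A probe covers a small part of an mRNA, so the lack of a match in the other probes of members says only that those letters were not in them. Over all detected genes, those with a match in their probe had medians of -0.08 after miR-30c-5p and -0.07 after miR-30a-5p, against 0.01 for the rest on both, and of 0.02 after miR-139-3p, against 0.01.

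Promoters were examined for what the genes have in common beyond their names. RefSeq windows (GRCh38.p14) from 250 bases before to 50 after the gene start were matched for 39 of the 45 genes, and MCM4, MCM5, GINS4, CCNE2, E2F8 and RPA2 had none. The E2F letters TTTCCCGC, TTTCGCGC, TTTGCCGC or TTTGGCGC, on either strand, were in 21 of the 50 windows of the 39 genes (42%), against 3.31% of all 35116 windows. By gene this is 21 of 39, or 53.8%, against 3.99% of 27305 genes. The CCAAT box was in 62% of the members' windows against 34.6% of all, and the CHR letters TTTGAA, a mark of many G2/M promoters, were in 4% against 15.2%. Of 28 E2F matches, 22 began at most 100 bases before the start or after it, and 5 genes had more than 1, with overlapping matches counted separately. A match is a description of letters and not of a bound factor.

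Stretches before the start are shown for genes of the miR-139-3p result, with the E2F letters on either strand in capitals. KIAA0101, UNG, E2F2, MCM3, MCM7 and MCM6 were chosen as genes with low values on that array or, for MCM6 (-0.96 there), on the miR-143-3p array, and PCNA and POLE as genes near 0 there.
KIAA0101 (PCLAF): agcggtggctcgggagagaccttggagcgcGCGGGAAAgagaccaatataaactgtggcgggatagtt
UNG: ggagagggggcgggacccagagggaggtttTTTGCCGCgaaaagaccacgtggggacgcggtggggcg
E2F2: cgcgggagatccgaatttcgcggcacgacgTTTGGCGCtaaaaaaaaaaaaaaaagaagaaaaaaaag
MCM3: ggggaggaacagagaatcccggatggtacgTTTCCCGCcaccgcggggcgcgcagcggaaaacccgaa
MCM7: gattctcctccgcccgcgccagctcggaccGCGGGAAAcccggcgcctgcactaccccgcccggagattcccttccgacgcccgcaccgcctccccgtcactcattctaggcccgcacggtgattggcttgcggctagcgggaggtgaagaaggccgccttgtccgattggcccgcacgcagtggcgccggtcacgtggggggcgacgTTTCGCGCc
MCM6: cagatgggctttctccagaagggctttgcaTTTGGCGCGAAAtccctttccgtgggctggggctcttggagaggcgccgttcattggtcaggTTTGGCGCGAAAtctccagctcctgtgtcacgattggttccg
PCNA: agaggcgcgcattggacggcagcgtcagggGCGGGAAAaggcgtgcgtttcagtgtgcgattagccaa
POLE: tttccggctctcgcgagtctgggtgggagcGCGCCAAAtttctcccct
In this order they lie at chr15:64381449-64381516 on the minus strand, chr12:109098079-109098146 on the plus strand, chr1:23531238-23531305 on the minus strand, chr6:52284879-52284946 on the minus strand, chr7:100101398-100101614 on the minus strand, chr2:135876492-135876625 on the minus strand, chr20:5126644-5126711 on the minus strand and chr12:132687343-132687390 on the minus strand. MCM6 held 4 matches in 2 overlapping pairs, which appear as longer runs of capitals. PCNA and POLE held the letters and had log2 ratios of 0.05 and -0.02 after miR-139-3p, whereas CCNE1, CDC45 and CHAF1B had none in their windows and were at -2.12, -1.65 and -1.56. Over all 39 genes the median on that array was -0.80 for the 21 with the letters and -0.79 for the 18 without. With miR-30c-2-3p the medians were -0.34 and 0.03, with ranges of -1.72 to 0.30 and -2.56 to 1.37, which overlap.

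**Figure D4:**
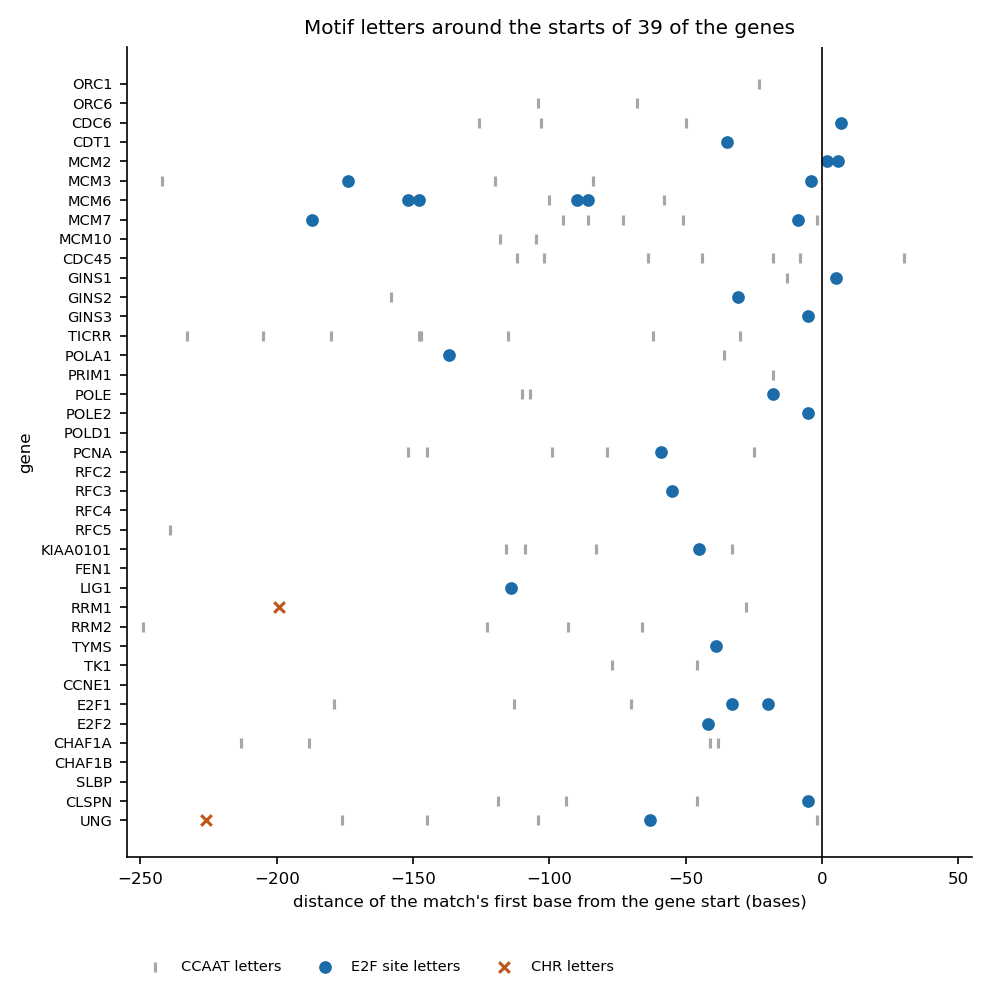
First base of each match to the E2F letters (blue circles), the CCAAT box (grey ticks) and the CHR letters (orange crosses), as the distance in bases from the gene start (vertical line), for the 39 genes with a RefSeq window (rows, with all windows of a gene on 1 row). Most E2F matches lie within 100 bases of the start, and CHR letters appear in RRM1 and UNG alone.

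The lists around the 45 genes were read on the same arrays. The other DNA replication and S-phase list, of 48 genes, had a median of -0.59 after miR-139-3p. There 12 (25%) were 2-fold lower, against 2.82% of detected genes, and none was higher, against 2.11%. Its lowest were UHRF1, which keeps DNA methylation on new strands, at -2.09 and CDCA7 at -1.94, and its highest were ORC4 at 0.78 and E2F7 at 0.54. Set against the other mock, that median was -0.22 with 6 (12.5%) lower, against 3.54%. On the miR-143-3p array the list's median was -0.42 with 4 (8.33%) lower, against 0.925%. They were led by GMNN, the CDT1 inhibitor geminin, at -1.75 and CDCA7 at -1.63. With the other mock the median there was -0.78 with 14 (29.2%) lower, against 2.28%. The highest of the list there were POLD2 at 0.61 and E2F7 at 0.55. With miR-30c-2-3p it was at 0.06 with 6 (12.5%) lower, against 4.14%, and 3 higher, against 1.71%. CDCA7 was at -2.08 and UHRF1 at -1.88 there, and WDHD1 was at 1.19 and ORC3 at 1.18. On the other 5 arrays its medians ran from -0.15 to 0.02 against their own mocks. Against the other mock they ran from -0.48 after miR-143-5p, with 8 (16.7%) lower, against 1.76%, to 0.34 after miR-139-5p.

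Mitosis and G2/M genes, a list of 30, gave another order of arrays. Their median was -0.27 after miR-139-3p, with 2 of 30 (6.67%) lower, against 2.82% of detected genes. These were CDC20 at -1.18 and FOXM1 at -1.08, and CENPF at 0.33 and NEK2 at 0.28 were at the other end. Neither CDC20, at -0.83, nor FOXM1, at -0.17, was 2-fold lower against the other mock, and no gene of the list was, beside 3.54% of detected genes. On the miR-143-3p array it was -0.86 with 9 (30%) lower, against 0.925%, or 25 (83.3%) with the other mock, where the share was 2.28%. MAD2L1, a spindle checkpoint gene, was at -1.65 and CDK1 at -1.38 there, and the highest were PLK1 at -0.04 and AURKB at -0.18. So the replication genes had the lower median of the 2 lists after miR-139-3p, and the mitosis genes on the miR-143-3p array. Against the other HCT116 mock the medians were -0.38 for the replication genes and 0.34 for the mitosis genes after miR-139-3p. On the miR-143-3p array they were -0.84 and -1.30. The mitosis median after miR-139-3p thus turned its direction. The same Cy5 levels enter both ratios, and the mocks differed more for the mitosis genes (0.55 to 0.59) than for the replication genes (0.41). The kept order within each array follows from this and is not a separate result. With miR-30c-2-3p the mitosis median was 0.23, above that of the replication genes, with TOP2A at -1.01 and AURKA at -0.78 lowest and CDC25C at 1.30 and HMMR at 1.26 highest. With miR-30c-5p and miR-30a-5p it was -0.42 and -0.40, below the replication genes. No gene of the list was 2-fold lower there, against 0.445% and 0.263%, or higher, against 0.747% and 0.306%. Under median centring these medians were 0.11 and -0.02, still below those of the replication genes, though the first turned its direction.

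**Figure D5:**
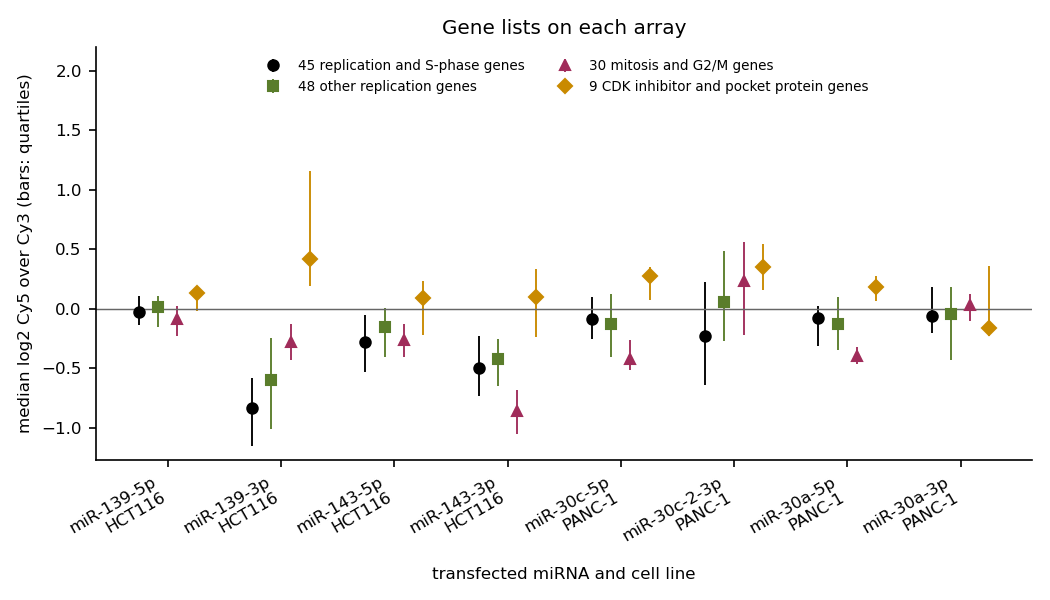
Median log2 ratio of Cy5 over Cy3 by array for 4 gene lists (symbols), with bars from the lower to the upper quartile of the genes. With miR-139-3p the replication genes lie below the mitosis genes, and on the miR-143-3p array and both miR-30 5p arrays the mitosis genes lie below the replication genes.

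Of the inhibitors upstream of cyclin E and E2F, CDKN1A, the p21 inhibitor of cyclin-dependent kinases, was at 0.12 after miR-139-5p, 1.65 after miR-139-3p, 1.16 after miR-143-5p, and 1.35 for the miR-143-3p array. It was thus 2-fold higher on the miR-139-3p, miR-143-5p and miR-143-3p arrays, as were 2.11%, 0.356% and 0.517% of detected genes in that order. Against the other mock the CDKN1A values on the HCT116 arrays were -0.95, 0.92, 2.18 and 2.47, so that the miR-139-3p value was short of 2-fold there. A link between CDKN1A and the replication genes was not tested. In PANC-1 CDKN1A stayed between -0.19 and 0.34. CDKN1C was at 1.80 after miR-139-3p, 1.12 on the miR-143-3p array (0.998 against the other mock) and -0.02 after miR-30c-2-3p. The list of 9 inhibitors and pocket protein genes had a median of 0.42 after miR-139-3p, where 3 were higher, against 2.11% of detected genes. Its lowest there were CDKN2A at -0.06 and RBL2 at 0.17. On the miR-143-3p array its lowest were CDKN2D at -0.38 and RB1 at -0.33. With miR-30c-2-3p CDKN2D was at 1.26 and CDKN1B at 0.94.

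Of the G1 genes, MYC, a transcription factor of growth and proliferation, was at -2.92 after miR-139-3p, -1.08 on the miR-143-3p array and -1.70 after miR-30c-2-3p. MYC was -3.42, -0.48 and -1.66 in that order against the other mock, so that it was not past 2-fold on the miR-143-3p array. CDK6 was at 1.80, -0.85 and 0.63 on these arrays, CDK4 at -0.55 after miR-139-3p (-0.18 against the other mock) and -0.61 after miR-30c-2-3p. CCND1, cyclin D1, was at 0.56 after miR-139-3p, and 0.08 for the miR-143-3p array, and CCND3 was at -0.18 there and 0.34 after miR-30c-2-3p. Over those detected of the 6 genes the median was 0.00021, -0.49 and 0.06 in that order.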

How the data were processed

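Per the labels, Cy5 held RNA of transfected cells and Cy3 mock RNA of the same line, on 8 arrays with 1 per miRNA. Per the file headers, the authors' scanner software (Feature Extraction 11.5.1.1, probes on hg19) gave the mean intensity and median background intensity of each spot, and the deposited log10 ratio of processed signals, which the processed table repeats and 0 columns of which were without a sample. The deposited spot calls (well above background, outlier, saturated), in their own column, were used as given.

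In R 4.3.3 with limma 3.58.1, intensities were corrected by normexp (offset 50), control spots were left out and log2 ratios were normalised by loess within each array. Outlier spots were then left out, and the other spots of a probe were averaged. A gene was its probe with the highest mean signal. It was detected where at least 0.5 of that probe's spots were well above background in 1 channel. The deposited log10 ratios, turned to log2, served as an alternative. Mock levels were compared after quantile normalisation between arrays. Python 3.11.15 (pandas 2.3.3, matplotlib 3.10.9) was used for tables and plots. Background correction and loess were tested on simulated data with known changes in bright probes alone, so the test does not cover dim members or the later steps.

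With 1 array per miRNA no test, SE or p-value could be had, and precision is limited by the number of arrays. The size rule was a log2 ratio at least 1 from 0. Named members were those past it on 2 or more arrays and the 3 lowest and 3 highest on each array. Of the other lists, the 2 lowest and 2 highest were named on the miR-139-3p and miR-30c-2-3p arrays and on the miR-143-3p array, and CDKN1A throughout. GINS3, CDC6, CDT1, ORC1, MCM5 and other members outside this rule were named to account for their role group. Members and lists were chosen with earlier results of these data known.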

Additional observations from a re-analysis of the deposited data

How the results depend on the processing

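Against the other mock of the line, the member medians were 0.40 after miR-139-5p, -0.38 after miR-139-3p, -0.67 after miR-143-5p, and -0.84 for the miR-143-3p array. The counts of members at least 2-fold lower were then 8, 10 and 18 on the last 3 of these and 2 after miR-30c-5p. The shares of all detected genes were 3.54%, 1.76%, 2.28% and 0.46% in that order. In the higher direction 1 member passed after each of miR-139-5p, miR-30a-5p and miR-30a-3p and 0 after miR-30c-5p. Here the shares were 0.577%, 0.902%, 0.607% and 0.584%. Under median centring in place of loess, the median of all genes moved by up to 0.28 (miR-30a-3p, from 0.02 to 0.30), and the member medians were 0.36 after miR-30c-5p and 0.58 after miR-30a-3p, or 0.15 and 0.28 above all genes. There the lower counts were 2 after miR-143-5p, against 0.512% of all detected genes, and 0 after miR-30c-5p, against 0.115%. The higher counts there were 2 after miR-30c-5p, 2 after miR-30a-5p and 7 after miR-30a-3p, where 3.98%, 1.41% and 8.82% of all detected genes were higher. On the miR-143-3p array the lower count was 5 without background correction, 6 with a normexp offset of 1 and 5 by the scanner log ratio. The share of all detected genes rose there as well, from 0.925% to 1.69%, 3.15% and 4.98% in that order. With miR-30a-5p each of these 3 settings gave 2, against 0.463%, 0.88% and 1.72% of all detected genes. After miR-30c-5p the scanner log ratio gave 2, against 3.11%. On the gene strand alone, 23.1% of the 39 genes with a window held E2F letters, against 2.17% of all genes with a window. The causes were not tested. The other medians and counts of the members moved by less than 0.30, the spread of member medians between mocks of different precursors, or by at most 1.5 times, while the lists beside the members moved by more (mitosis and other replication genes after miR-30a-3p to 0.71 and 0.64 under median centring). No member past 2-fold turned its direction under any of the 8 alternatives. Both filters on dim probes left the members unchanged, since all 45 were above background in both channels. The search for PCNA-binding motifs in member proteins was planned and not run, because protein sequences were not used here.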
